A study of Mus musculus with 5 samples.

Results

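Fat cell and lipid metabolism genes were examined in the knee joints of mice lacking both epiphycan (Epyc) and biglycan (Bgn), against wildtype joints. The genes were 37 listed by name for fat cell markers, fatty acid uptake, fat synthesis and storage, fat breakdown and cholesterol synthesis. Probe sets named for 32 of them alone stood in both value tables, out of 12393 genes with such a probe set, and the probe set with the highest mean of the 5 arrays stood for each gene. Plin1, Cfd, Acsl1, Agpat2 and Insig1 were not analysed here. The tested group held 3 pools of Epiphycan and Biglycan double-null males, and 2 pools of wildtype males stood against them. All mice were 3 months old, of a C57/Bl6:129 hybrid strain, and the labels give no other allele or agent. Each Affymetrix array carried RNA pooled from 6 tibio-femoral joints of 3 mice, so differences between single animals were not measured. The arrays came as 2 tables of the same probe sets: double-null pool 3 and wildtype pool 2 in 1 table (array type A), and double-null pools 1 and 2 with wildtype pool 1 in the other (array type B).

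Fat cells store triglyceride in lipid droplets. They take up fatty acids released from blood lipids by lipoprotein lipase, make further fatty acids from citrate, and release them again through a chain of lipases. Their differentiation is driven by the transcription factors PPAR-gamma and C/EBP-alpha. Cholesterol is made from acetyl-CoA through the mevalonate pathway, whose genes are switched on together by SREBP-2 when cell sterol is low. In a whole knee joint, fat cells lie in the infrapatellar fat pad and in the marrow, while muscle, macrophages and capillaries also carry several of these messages.

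None of the 27 members bright enough to be tested differed between double-null and wildtype joints after adjustment (limma, Benjamini-Hochberg over 7436 genes, smallest adjusted p = 0.71). Over all tested genes 0.121% were called, 9 in number, 6 higher (0.0807%) and 3 lower (0.0403%). At an unadjusted p under 0.05 there were 2 members, Fabp4 and Pnpla2, both lower in double-null joints, which is 7.41% of the tested members against 6.17% of all tested genes (3.52% higher and 2.65% lower). The other 5 measured members, Lep, Cidec, Pparg, Acaca and Cyp51, lay below the intensity filter, a mean signal near 98.5, and are given as values. Each difference is the fitted log2 fold change (double-null over wildtype) of log2(signal + 32) with array type as a term, a scale that understates the change of dim genes.

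Every double-null pool lay below both wildtype pools for 5 tested members: Fabp4, Scd1, Fasn, Lipe and Pnpla2. That is 18.5% of the tested members, against 10.2% of all tested genes. Every double-null pool lay above both wildtype pools for 3 members of the cholesterol pathway, Hmgcs1, Fdft1 and Idi1, or 11.1% against 9.45% of all tested genes. The median of the tested members was -0.069, with 16 negative and 11 positive values, against a median of -0.011 over all tested genes, of which 52.1% were negative. The 95% interval of the difference lay inside a change of 2-fold in either direction for all 27 tested members and included 0 for 25 of them. Having 5 arrays limits the precision of every value. In whole joints, fewer cells of a type and less message per cell cannot be told apart.

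**Figure D1:**
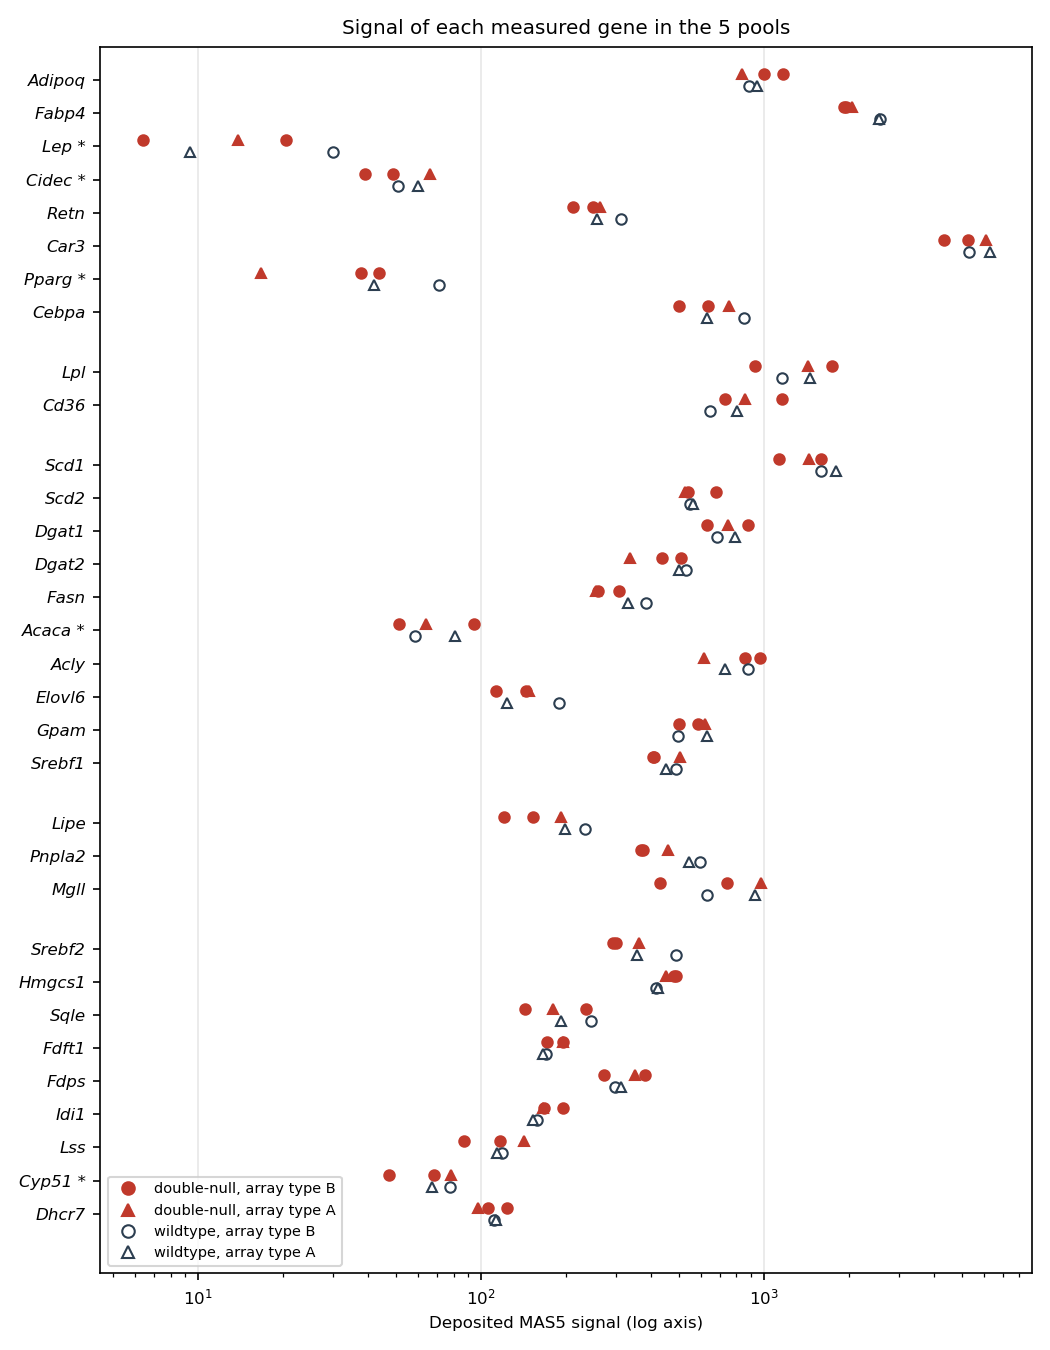
Deposited signal (horizontal, log axis) of each of the 32 measured genes, ordered by role from fat cell markers at the top to cholesterol synthesis at the bottom. Red filled symbols are the 3 double-null pools and open symbols below them the 2 wildtype pools, triangles mark array type A, circles array type B, and an asterisk a gene below the intensity filter. Fabp4, Scd1, Fasn, Lipe and Pnpla2 have all red symbols left of the open ones, and most other genes have them mixed.

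The promoters of 4 members whose pools did not overlap between genotypes are shown. They are the non-overlapping members with exactly 1 promoter window of the length used. Fabp4, Scd1 and Fdft1 had 0 such windows and Lipe had 2. Hmgcs1 and Idi1 stood higher in double-null pools, Fasn and Pnpla2 lower. Each window runs from 250 bases before to 50 bases after the annotated start on the gene's strand, 5′ to 3′, from RefSeq on build GRCm38.p6. Capitals mark CACCCCAC, the core of a sterol regulatory element bound by SREBP proteins, and CCAAT, the box bound by NF-Y, each on either strand, which may overlap. These letters were picked from several spellings after matches were seen, so they describe the windows only.
Hmgcs1, chr13:119690101-119690400, plus strand: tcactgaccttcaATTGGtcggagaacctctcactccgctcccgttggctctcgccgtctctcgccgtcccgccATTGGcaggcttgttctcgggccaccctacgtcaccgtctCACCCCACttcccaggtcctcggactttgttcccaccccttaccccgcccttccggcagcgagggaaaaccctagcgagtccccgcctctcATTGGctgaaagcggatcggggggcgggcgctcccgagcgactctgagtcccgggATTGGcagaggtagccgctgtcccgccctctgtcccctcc
Idi1, chr13:8885356-8885655, plus strand: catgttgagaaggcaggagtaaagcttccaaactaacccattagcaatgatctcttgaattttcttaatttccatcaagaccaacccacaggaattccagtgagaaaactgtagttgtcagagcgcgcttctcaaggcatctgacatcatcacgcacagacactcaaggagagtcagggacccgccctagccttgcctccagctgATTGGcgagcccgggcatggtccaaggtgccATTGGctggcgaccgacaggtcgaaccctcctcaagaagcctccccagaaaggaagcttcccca
Fasn, chr11:120824498-120824797, minus strand: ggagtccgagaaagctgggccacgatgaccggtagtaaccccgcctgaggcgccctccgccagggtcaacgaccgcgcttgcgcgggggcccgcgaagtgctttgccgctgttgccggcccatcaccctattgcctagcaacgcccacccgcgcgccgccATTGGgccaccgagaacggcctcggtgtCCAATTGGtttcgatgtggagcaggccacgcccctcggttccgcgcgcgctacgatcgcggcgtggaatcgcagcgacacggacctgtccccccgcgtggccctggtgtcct
Pnpla2, chr7:141454938-141455237, plus strand: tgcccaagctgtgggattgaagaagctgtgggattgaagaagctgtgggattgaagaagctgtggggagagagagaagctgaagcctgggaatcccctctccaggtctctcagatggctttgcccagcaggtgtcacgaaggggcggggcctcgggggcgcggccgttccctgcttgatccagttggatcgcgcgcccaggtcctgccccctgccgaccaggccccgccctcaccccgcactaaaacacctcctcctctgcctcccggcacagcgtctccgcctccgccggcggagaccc

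The Hmgcs1 window held 5 matches: the sterol element core 136 bases before the start, and 4 CCAAT boxes. Idi1 held 2 CCAAT boxes and Fasn 3, while these letters are not in the Pnpla2 window. Over all 32851 promoter windows of this length, 2.87% held the sterol element core and 37.4% a CCAAT box. Of the 32 windows of 22 measured members, 2 held the core, those of Hmgcs1 and Gpam, and 15 held a CCAAT box.

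Of the 8 measured fat cell markers, 5 were bright enough to be tested, and among these only Fabp4 had no overlap between the genotypes on its normalised values. Adipoq encodes adiponectin, a hormone made almost solely by fat cells. It read 1165, 1004 and 835 in double-null pools 1, 2 and 3, against 888 and 946 in wildtype pools 1 and 2, so both wildtype values lay inside the double-null range. The log2 fold change of Adipoq was 0.058 ± 0.18 (SE), with a 95% interval from -0.33 to 0.44 (limma adjusted p = 0.99).

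Fabp4, the fatty acid binding protein of fat cells that capillaries and macrophages also make, read 1913, 1945 and 2045 in double-null pools, against 2581 and 2547 in wildtype pools. The replicates were tight in both genotypes, at 1968 ± 68.4 (SD, n = 3) in double-null and 2564 ± 23.5 (n = 2) in wildtype pools, and did not overlap. The fitted difference of Fabp4 was -0.38 ± 0.15, a level 0.768 times that of wildtype, at unadjusted p = 0.028 and adjusted p = 0.73 (limma). It was -0.33 within type A and -0.42 within type B. Its 3 other probe sets gave smaller values of the same sign, -0.21, -0.065 and -0.056. The one at -0.21 overlapped between the genotypes, with 1150, 833 and 948 in double-null pools, against 899 and 1434 in wildtype pools.

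Retn, encoding resistin, a hormone of mouse fat cells, read 212, 250 and 264 in double-null pools, against 312 and 257 in wildtype pools (log2 fold change -0.19 ± 0.18, limma adjusted p = 0.98). The ranges overlapped. Cebpa, the C/EBP-alpha factor of fat cells and also of myeloid precursors, read 634, 501 and 751 in double-null pools, against 852 and 630 in wildtype pools (-0.23 ± 0.22, adjusted p = 0.98). Its direction differed between the tables, at 0.26 within type A and -0.60 within type B. The genotype-by-type interaction of Cebpa had unadjusted p = 0.044 and adjusted p = 0.79 (limma). Cebpa was the only one of the 27 tested members under an unadjusted 0.05 in that test, or 3.7%, against 6.29% of all tested genes.

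Car3, carbonic anhydrase III, is abundant in mouse fat and in skeletal muscle. Its signals were 5257, 4331 and 6105 in double-null pools, against 5327 and 6282 in wildtype pools, and the log2 fold change was -0.099 ± 0.14 (limma adjusted p = 0.99). The 2 highest values were those of the array type A pools, 1 of each genotype. A second Car3 probe set showed the same order of types, with 1290, 826 and 2061 in double-null pools and 1592 and 1783 in wildtype pools.

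The remaining fat cell markers were dim. Lep, encoding leptin, read 6.37, 20.4 and 13.9 in double-null pools, against 30.1 and 9.33 in wildtype pools. Each value lay below the highest Bacillus control probe set on its own array, which has no target in mouse RNA and ran from 27.5 to 63.5. Cidec, a protein of the lipid droplet surface, read 38.9, 48.8 and 65.8 in double-null pools, against 50.9 and 59.9 in wildtype pools, and exceeded that control in 4 of 5 pools. Pparg, the PPAR-gamma receptor that drives fat cell differentiation, read 43.7, 37.7 and 16.7 in double-null pools, against 71.2 and 41.7 in wildtype pools, and exceeded it in 3 of 5. The fitted values, without a call, were -0.20 for Lep, 0.012 for Cidec and -0.50 for Pparg.

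As a group the 8 measured fat cell markers had a mean level of -0.065, -0.11 and -0.046 in double-null pools 1, 2 and 3, and 0.17 and 0.057 in wildtype pools 1 and 2, on the log2(signal + 32) scale relative to each gene's mean over all 5 pools. All double-null pools stood below both wildtype pools, by small amounts. This mean counts the dim Lep, Cidec and Pparg as much as the bright markers. Of the 5 tested markers 4 were negative and 1, Adipoq, positive, with a median of -0.19. That median was -0.16 within type A and -0.36 within type B.

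**Figure D2:**
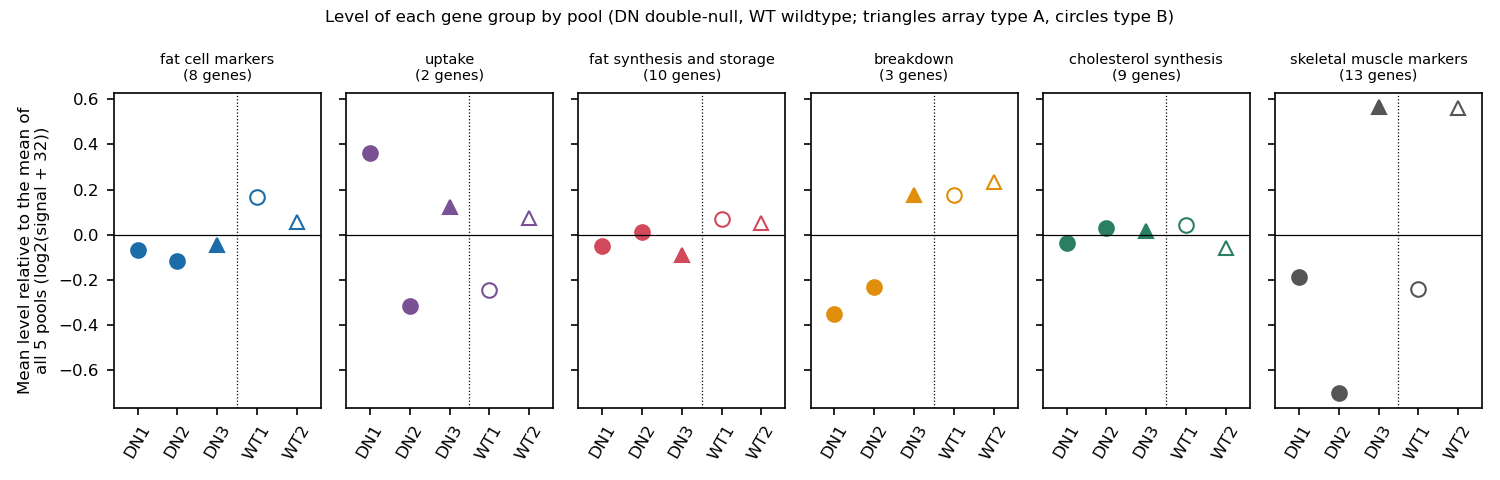
Mean level of each gene group in double-null (DN, filled) and wildtype (WT, open) pools, as log2(signal + 32) relative to each gene's mean over the 5 pools, with skeletal muscle markers on the right. Triangles are array type A. The muscle markers are near 0.56 in both type A pools and below 0 in the 3 type B pools, while fat cell markers stay between -0.11 and 0.17.

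Genes of fatty acid uptake overlapped between the genotypes. Lpl, lipoprotein lipase, which frees fatty acids from blood triglyceride, read 1735, 934 and 1430 in double-null pools, against 1156 and 1453 in wildtype pools (log2 fold change 0.036 ± 0.22, limma adjusted p = 0.995). The double-null pools alone spanned more than the whole wildtype range. Cd36, a membrane fatty acid carrier of fat cells, muscle, capillaries and macrophages, read 1158, 730 and 860 in double-null pools, against 644 and 803 in wildtype pools. The fitted value of Cd36 was the highest of all tested members, 0.31 ± 0.21, with an interval from -0.14 to 0.76 (adjusted p = 0.90). A second bright probe set of Cd36 was at -0.016, so the size rests on 1 probe set.

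In fat synthesis, Fasn, Scd1 and Dgat2 read somewhat less in double-null joints, without a call. Fasn, fatty acid synthase, read 259, 307 and 256 in double-null pools, against 383 and 331 in wildtype pools. All double-null values lay below both wildtype values, and the log2 fold change was -0.36 ± 0.17, a level 0.778 times that of wildtype, with unadjusted p = 0.059 and adjusted p = 0.82 (limma). The difference was of like size in both tables, -0.34 within type A and -0.38 within type B.

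Scd1, the stearoyl-CoA desaturase that makes monounsaturated fatty acids in fat and skin, read 1595, 1132 and 1439 in double-null pools, against 1596 and 1801 in wildtype pools. The groups were apart only narrowly, since double-null pool 1 lay almost level with wildtype pool 1. The fitted value was -0.31 ± 0.17 (limma adjusted p = 0.85), and the second Scd1 probe set was at 0.13, of the opposite sign. Scd2, the related desaturase of many tissues, was at 0.036 ± 0.18, with 678, 541 and 525 in double-null pools and 549 and 560 in wildtype pools.

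Dgat2, an acyltransferase of the last step of triglyceride synthesis, read 436, 507 and 337 in double-null pools, against 532 and 501 in wildtype pools, with overlap (-0.33 ± 0.18, limma adjusted p = 0.85). Its second probe set gave -0.21. Dgat1, which catalyses the same step, read 629, 881 and 747 in double-null pools and 681 and 788 in wildtype pools, at 0.029 ± 0.20. Whether the 2 enzymes differ in their response was not tested.

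The other measured genes of synthesis overlapped between genotypes. They were Acly, which makes cytosolic acetyl-CoA (-0.091), Elovl6, which lengthens fatty acids (-0.14), Gpam, which starts glycerolipid assembly (0.053), Srebf1, encoding the SREBP-1 regulator of fatty acid synthesis (-0.069), and the dim Acaca, acetyl-CoA carboxylase (0.053, below the filter). Of the 9 tested genes 6 were negative and 3 positive, with a median of -0.091. The 12 listed genes of this role include Acsl1 and Agpat2, which were not analysed.

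Of the fat breakdown genes, the 2 lipases that act first read less in every double-null pool. Pnpla2 encodes adipose triglyceride lipase, which takes the first fatty acid off stored triglyceride. It read 374, 367 and 457 in double-null pools, against 594 and 544 in wildtype pools, or 399 ± 49.9 (SD, n = 3) and 569 ± 34.9 (n = 2). The difference of -0.46 ± 0.18 was the most negative of all tested members, a level 0.726 times that of wildtype, with an interval from -0.85 to -0.069, unadjusted p = 0.025 and adjusted p = 0.71 (limma). It was -0.22 within type A and -0.64 within type B. A second, dim Pnpla2 probe set, below the filter, was at 0.042.

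Lipe, the hormone-sensitive lipase that follows it, read 153, 121 and 192 in double-null pools, against 233 and 198 in wildtype pools. No double-null pool reached a wildtype value, though double-null pool 3 came close to wildtype pool 2. The log2 fold change was -0.36 ± 0.21 (limma adjusted p = 0.86), at -0.032 within type A and -0.61 within type B. Nearly all of it came from the type B pools.

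Mgll, the monoglyceride lipase that ends the chain, read 429, 740 and 978 in double-null pools, against 629 and 927 in wildtype pools (-0.052 ± 0.22, limma adjusted p = 0.99). The genotypes overlapped fully, and the array type A pools were the highest of each genotype. Mgll probe sets disagreed: the 2 others above the filter were at 0.072 and -0.42. The mean level of the 3 lipases, on the scale used for the fat cell markers, was -0.35, -0.23 and 0.17 in double-null pools, and 0.18 and 0.23 in wildtype pools, so double-null pool 3 stood almost level with wildtype. The median of the 3 lipases was -0.36 in the fit of all pools, -0.032 within type A and -0.61 within type B.

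**Figure D3:**
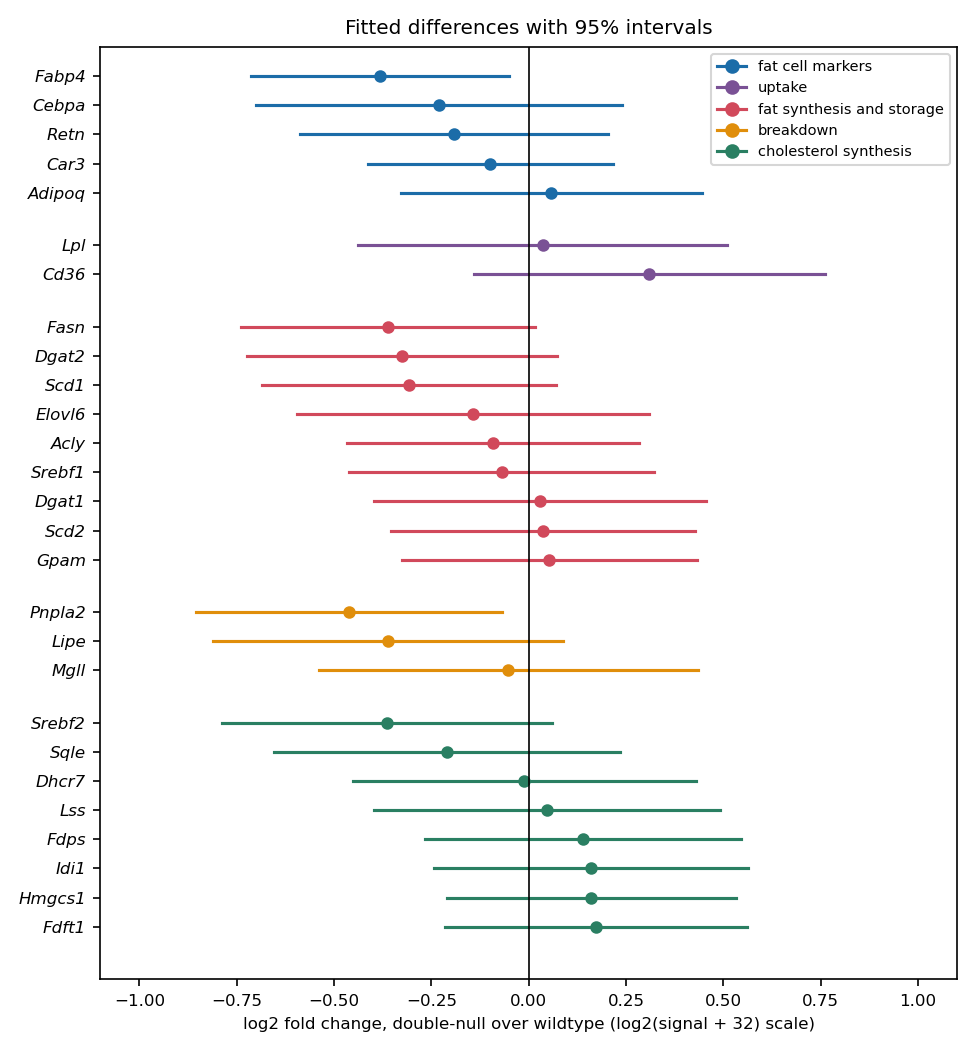
Log2 fold change, double-null over wildtype (horizontal), of the 27 tested genes, grouped by role and coloured as in the key, with 95% intervals from the limma fit. The intervals of Fabp4 (-0.71 to -0.050) and Pnpla2 (-0.85 to -0.069) lie left of 0, and the other 25 cross it.

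Of the 8 tested genes of cholesterol synthesis and its control, 5 were positive and 3 negative, with 0 called by limma and 0 at an unadjusted p under 0.05. Their mean level, over the 9 measured, was -0.035, 0.030 and 0.016 in double-null pools, and 0.045 and -0.056 in wildtype pools, so the genotypes overlapped. Hmgcs1, which makes HMG-CoA at the start of the pathway, read 482, 487 and 451 in double-null pools, against 415 and 422 in wildtype pools. The groups were apart with little spread, at 473 ± 19.7 (SD, n = 3) and 418 ± 4.85 (n = 2), and the fitted value was 0.16 ± 0.17 (limma adjusted p = 0.99). Of 3 other Hmgcs1 probe sets above the filter, 2 were at 0.30 and 0.35 and 1 at -0.33. The name of the one at 0.35 ends in _x_at, the array maker's mark for probes that may bind other transcripts.

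Idi1, the isomerase of the isoprenoid units, read 194, 167 and 165 in double-null pools, against 158 and 153 in wildtype pools (0.16 ± 0.18, limma adjusted p = 0.99). Fdft1, squalene synthase, the first enzyme committed to sterols, read 171, 195 and 195 in double-null pools, against 169 and 166 in wildtype pools (0.17 ± 0.18, adjusted p = 0.99). In both genes all double-null pools stood above the wildtype pools, and the margin was under the spread among the double-null pools. Fdft1 had another probe set above the filter at 0.45, and below it 1 at -0.016 and 1 at -0.57. The names of those at 0.45 and -0.57 also end in _x_at.

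Fdps, farnesyl diphosphate synthase between these steps, read 273, 381 and 352 in double-null pools, against 298 and 312 in wildtype pools, at 0.14 ± 0.19. Sqle, the epoxidase after squalene, had the opposite sign, with 143, 234 and 179 in double-null pools, against 244 and 191 in wildtype pools (-0.21 ± 0.20, limma adjusted p = 0.98). Its groups overlapped. Lss (0.047), Dhcr7 (-0.011) and the dim Cyp51 (-0.061, below the filter), enzymes of later steps, also overlapped.

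Srebf2, encoding the SREBP-2 factor that switches these enzymes on, read 300, 293 and 361 in double-null pools, against 488 and 357 in wildtype pools (-0.36 ± 0.19, limma adjusted p = 0.85). Wildtype pool 1 stood alone above the rest. The difference of Srebf2 was 0.013 within type A and -0.65 within type B, and its second probe set was at -0.19. The median of the 8 tested genes of the pathway was 0.093, at 0.092 within type A and 0.12 within type B.

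**Figure D4:**
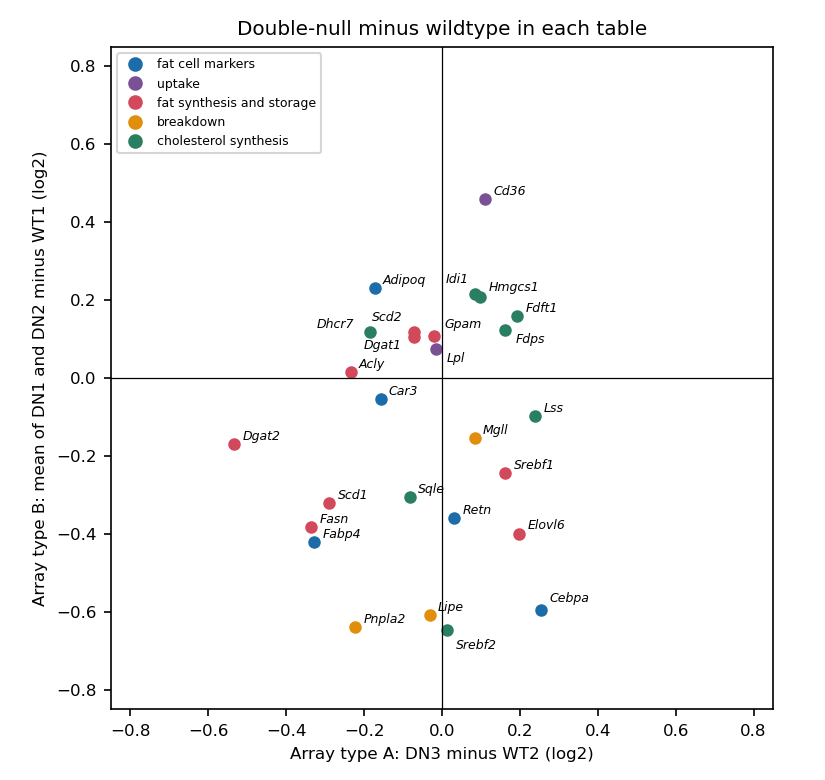
Double-null minus wildtype within type A (horizontal) against array type B (vertical), in log2(signal + 32), for the 27 tested genes coloured by role, with DN for double-null and WT for wildtype pools. Fabp4, Fasn, Scd1, Pnpla2 and Dgat2 sit lower left and Hmgcs1, Idi1, Fdft1, Fdps and Cd36 upper right, while Cebpa, Elovl6 and Srebf1 are positive on type A and negative on type B.

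The sign of the difference was opposite in the 2 tables for 14 of the 27 tested members, or 51.9%, against 52.7% of all tested genes. None had an adjusted interaction p under 0.05, and over all tested genes 0 were called (0%). The sources used here do not say whether array type stands for another chip, a batch or only another platform record. Both type A pools stood above all 3 type B pools for Car3, Gpam and Mgll, or 11.1% of tested members against 12.1% of all tested genes, and below them for Acly, or 3.7% against 12.8%.

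Skeletal muscle markers followed the same split. Of 12 tested markers 11 were higher in both type A pools than in any type B pool, and the summed signal of all 13 was 51936, 37242 and 90790 in double-null pools, against 60713 and 76198 in wildtype pools. By genotype 9 of the 12 tested markers were negative and 3 positive, with 0 called. The median of the 12 was -0.12, at 0.099 within type A and -0.25 within type B. At an unadjusted p under 0.05 (limma) there was 1, Myh2, lower at -0.59 ± 0.21 (adjusted p = 0.66). Of all tested genes 2.65% were lower at that p. Muscle content and array type cannot be told apart here. The part of muscle in the values of the lipid genes, Car3, Lpl, Cd36 and Mgll among them, was not tested.

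Related fat cell genes outside the list were mixed in sign, with 12 negative and 9 positive of 21 tested. They were chosen with earlier results of these data known. Of 30 further fat cell and lipid droplet genes 29 were measured and 21 tested, 0 were called, and 4 had an unadjusted p under 0.05, all lower, where 2.65% of all tested genes did so. Every double-null pool lay below both wildtype pools for 5 of the 21 and above for 0, against 10.2% and 9.45% of all tested genes, and the median was -0.096. Plin4, a perilipin that coats lipid droplets in fat cells and muscle, had the lowest p. It read 329, 333 and 403 in double-null pools, against 623 and 574 in wildtype pools, with a log2 fold change of -0.68 ± 0.18, unadjusted p = 0.0024 and adjusted p = 0.29. Rbp4, the retinol carrier secreted by fat cells and liver, read 210, 177 and 185 in double-null pools, against 274 and 263 in wildtype pools (-0.43 ± 0.18, adjusted p = 0.76). The other 2 under an unadjusted 0.05, Thrsp, a lipogenic nuclear protein, at -0.52, and Slc2a4, the insulin-responsive glucose carrier of fat and muscle, at -0.39, were named after their values were seen.

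Further sterol genes were likewise without a call. Of 20 listed, 15 were measured and 13 tested, 10 positive and 3 negative, with a median of 0.098 and 0 called. At an unadjusted p under 0.05, as for 6.17% of all tested genes, were 2 of the 13, Stard4, a sterol carrier, higher (331, 414 and 621 in double-null pools, against 244 and 504 in wildtype pools, 0.45 ± 0.18, limma adjusted p = 0.73), and Sc5d, a late desaturase of the pathway, lower (130, 116 and 102 in double-null pools, against 214 and 123 in wildtype pools, -0.45 ± 0.20, adjusted p = 0.79). Stard4 overlapped between the genotypes and was highest in the type A pools.

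Fatty acid oxidation genes had 10 of 12 measured and 9 tested, with a median of -0.094, 0 called and 0 under an unadjusted 0.05. Pdk4, the kinase that spares glucose when fat is burnt, read 265, 213 and 280 in double-null pools, against 378 and 317 in wildtype pools (-0.41 ± 0.19, limma adjusted p = 0.82). Hadha, a subunit of the mitochondrial trifunctional protein, read 489, 488 and 551 in double-null pools, against 636 and 655 in wildtype pools (-0.31 ± 0.17, adjusted p = 0.85). Every double-null pool lay below both wildtype pools for these 2 of the 9 and above for 1, the dehydrogenase gene Acadl. Over all tested genes the shares were 10.2% and 9.45%. Of 6 brown fat genes 5 were measured and 1 tested, Dio2, at 0.38 ± 0.19 (adjusted p = 0.85). Ucp1, the defining gene of brown fat, stood at 2.32 to 4.74 in double-null and 2.61 to 4.86 in wildtype pools, under the Bacillus controls in every pool.

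The labels were checked on the targeted genes. Bgn read 204, 224 and 206 in double-null pools, against 3413 and 2003 in wildtype pools, and Epyc read 10.8, 3.38 and 1.29 against 91.2 and 78.8. Markers of other cells that make some of these messages overlapped between genotypes in their summed signal, which ran from 13050 to 18214 in double-null and 13059 to 18984 in wildtype pools for 8 macrophage genes, and from 1301 to 1815 and from 1428 to 1611 for 8 endothelial genes. Of 7 tested macrophage genes 3 were positive and 4 negative, with a median of -0.087. Mrc1 (0.43 ± 0.18, limma adjusted p = 0.77) and Cd14 (0.49 ± 0.22, adjusted p = 0.79) stood above both wildtype pools in every double-null pool. They were 2 of the 7, and 9.45% of all tested genes stood so. Marco was under the Bacillus controls in all pools. Sums ran from 85480 to 120534 in double-null and 85651 to 137890 in wildtype pools for 8 neutrophil genes, from 16594 to 16681 and from 13858 to 16355 for 5 of 8 erythroid genes, from 8912 to 10556 and from 9189 to 9265 for 5 of 6 cell cycle genes, and from 307 to 568 and from 419 to 434 for 7 skin and sebaceous gland genes, of which 1 passed the filter. These sums rest mainly on the brightest genes, and only the erythroid sums did not overlap, higher in double-null pools. By mean level, as for the fat cell markers, erythroid genes overlapped, while neutrophil genes were at -0.0069, -0.042 and -0.056 in double-null pools, below 0.089 and 0.015 in wildtype pools. Neutrophil Elane (-0.32 ± 0.13, limma unadjusted p = 0.030, adjusted p = 0.75), Mpo (-0.077) and Lcn2 (-0.17) were lower without overlap on the normalised scale. They were 3 of the 8 neutrophil genes, against 10.2% of all tested genes. On deposited signals each of these 3 genes overlapped between the genotypes. The part of these cells in the lipid gene values was not tested.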

How the data were processed

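RNA pooled from tibio-femoral joints was labelled and read on Affymetrix arrays, per the labels' protocols. Per the submitters' processing notes MAS5 made the values, and its version was not given in the sources used here. Deposited values are linear intensity signals for each probe set. Their 2% trimmed mean was 250.1 on each array.

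Here log2(signal + 32) was quantile normalised over the 5 arrays. The 20393 probe sets with 1 gene symbol were named from the platform annotation, and 20364 were updated through Entrez numbers. For each gene the brightest probe set was kept, and genes above the 40th percentile of the mean were tested, 7436 in all, with limma 3.58.1 in R 4.3.3 (genotype and array type as terms, with an intensity trend, 2 residual and 9.8 prior degrees of freedom, two-sided, Benjamini-Hochberg, threshold 0.05). An interaction of genotype and type was fitted likewise. Pools are taken as separate samples. The p-values set each difference against variation between these 5 pools, not between animals. Most weight in that variation comes from all tested genes through the prior, and less from the gene's own pools. Whether groups were apart was read from normalised values, while means ± SD are of deposited signals. SE and 95% intervals belong to the fit. Of 19 members with over 1 probe set, 13 had over 1 above the filter, and in 7 of these (Acly, Cd36, Hmgcs1, Lpl, Mgll, Scd1 and Scd2) the signs differed.

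The members, role groups, further gene lists (fat cell and droplet, brown fat, sterol, fatty acid oxidation) and marker lists (muscle, macrophage, endothelium, erythroid, neutrophil, skin, cell cycle) were chosen with earlier results of these data known. Members in full were those with unadjusted p under 0.05, with groups apart, or among the 3 smallest p of their role, and from each further list the 2 smallest p were named. The fit was run on values simulated from the same model, which checks the code and not the results of the members. Alternatives were other scalings, pseudocounts of 1 and 128, no filter or one at the 60th percentile, no type term, each type alone, a replicate block, no trend, the mean over probe sets, and leaving out each pool.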

Additional observations from a re-analysis of the deposited data

How the results depend on the processing

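No member was called in any of the 16 alternatives with a test (limma, lowest adjusted p = 0.44, Srebf2 within type B alone). Between 0 and 4 members had an unadjusted p under 0.05, against 2 with all pools. There were 0 of 27 without wildtype pool 1, where 3.9% of all tested genes were under that p, and 4 within type B alone (Cebpa, Lipe, Pnpla2 and Srebf2), where 9.83% were, against 6.17% in the fit of all pools. With the mean over probe sets only Fasn was under an unadjusted 0.05 (limma), as were 6.62% of all tested genes. Fabp4 was then at -0.18 and Pnpla2 at -0.21. Only Pnpla2 was under it with the deposited scaling (5.81% of all tested genes) and with median centring (5.38%). Of the 16 members chosen by p or by groups apart, 11 kept their sign in every alternative that held them. Retn, Cebpa, Lpl, Mgll and Srebf2 did not, and the cause was not tested. The 11 include the 5 lower and 3 higher members whose groups were apart. For those, having groups apart already fixes the sign within each type, with the replicate block and with a pool left out. Their kept sign is therefore no separate support. Within type A alone, a difference of single pools with no test, Retn was 0.031, Cebpa 0.26, Lpl -0.016, Mgll 0.084 and Srebf2 0.013. Lpl was -0.011 without the type term and -0.092 with the replicate block, and Mgll 0.044 with the mean over probe sets. Leaving out single pools, they ran from -0.36 to 0.031 (Retn), -0.60 to 0.26 (Cebpa), -0.16 to 0.22 (Lpl), -0.22 to 0.15 (Mgll) and -0.65 to 0.013 (Srebf2). With double-null pool 3 or wildtype pool 2 left out, the genotype difference is that within type B alone, and with wildtype pool 1 left out that within type A. A lone pool is assumed there to vary like the others.

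The median of the fat cell markers was -0.36 within type B alone and -0.36 to -0.10 leaving out single pools. Fat synthesis was at -0.037 with median centring, -0.17 within type B and -0.17 to -0.054 leaving out single pools. Breakdown was at -0.61 within type B, -0.032 within type A and -0.61 to -0.032 leaving out single pools. Over all tested genes, 6 were called higher and 3 lower. Higher calls numbered 2 with the deposited scaling, 3 with median centring, 1 without the filter, 2 without the type term, 1 within type B alone, 2 without the trend and 1 to 40 leaving out single pools. Lower calls numbered 1 without the filter, 1 within type B alone and 1 to 10 leaving out single pools. Calls in both directions came to 23 without double-null pool 1, 50 without double-null pool 2, 2 without double-null pool 3 or wildtype pool 2, and 3 without wildtype pool 1. With the replicate block limma called 0 genes in each direction (484 at unadjusted p under 0.05), and Fabp4, Lipe and Pnpla2 were the 3 members under an unadjusted 0.05. The pool numbers were not taken as pairs in the main fit. Deviations of same-numbered pools from their group means had r = 0.00481 for number 1 and -0.181 for number 2, across genes. With 2 wildtype pools these deviations mirror each other, and array type was not removed from them. The r values therefore cannot show whether same-numbered pools were paired. Lep, Cidec and Pparg lay near the Bacillus controls, which limits what their values can show.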

Other observations

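Me1, the malic enzyme that supplies NADPH for fatty acid synthesis, read 242, 253 and 347 in double-null pools, against 361 and 381 in wildtype pools (log2 fold change -0.32 ± 0.18, limma adjusted p = 0.85). Acadl, a dehydrogenase of fatty acid oxidation, read 653, 584 and 535 in double-null pools, against 473 and 533 in wildtype pools (0.21 ± 0.18, adjusted p = 0.95). Neither gene overlapped between the genotypes, and both were picked after their values were seen. Of all tested genes 10.2% lay apart in the direction of Me1 and 9.45% in that of Acadl.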
